A study of Mus musculus with 6 samples.

Results

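Mpo, Elane, Prtn3 and Ctsg encode myeloperoxidase, neutrophil elastase, proteinase 3 and cathepsin G, the main soluble enzymes of the primary (azurophil) granules of neutrophils. They are 4 of the 19938 genes that the arrays measured with a probe set of exactly 1 gene symbol, and each has 1 such probe set. They were chosen by name from earlier results of this same comparison, in which they were higher without Jup, so their differences between the groups are given as a description and without a test. The question of the study, by its title, is which signals depend on Jup (gamma-catenin, or junction plakoglobin) during the progression of BCR-ABL1+ B-cell acute lymphoblastic leukaemia.

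The comparison had 3 arrays of Jup-/- (KO) cells and 3 arrays of Jup+/+ (WT) cells, all on the C57BL/6 background. Fetal liver cells (CD45.2+) of either genotype first reconstituted CD45.1+ mice for at least 8 weeks. Bone marrow of these chimeras was transduced with a BCR-ABL1 IRES GFP retrovirus, which delivers the fused tyrosine kinase that drives this leukaemia, and was transplanted into lethally irradiated CD45.1+ recipients. Sorting at day 21 kept B cells that were positive for GFP, B220, BP-1 and CD45.2. Cells of both groups therefore carried BCR-ABL1, and no group without it was analysed here. How the Jup allele was inactivated, the age of the mice and whether an array held cells of 1 mouse or of several are not stated. The labels call the arrays biological replicates.

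Primary granules are built in promyelocytes, the stage of neutrophil development at which these 4 genes are transcribed, and the transcripts fade as the cells mature. Myeloperoxidase is a haem enzyme that turns hydrogen peroxide and chloride into hypochlorous acid. Elastase, proteinase 3 and cathepsin G are serine proteases of the chymotrypsin fold that are made as inactive precursors, trimmed by cathepsin C and stored on the proteoglycan serglycin. The transcription factors PU.1, C/EBP, RUNX1, MYB and GFI1 are known to control these genes in myeloid cells. B-lineage cells are not known as a regular source of these enzymes.

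The promoters of the 4 genes are shown because the members sit at 3 separate places in the genome and were higher in the same arrays. The sequences are the 250 bases before the annotated start in RefSeq of GRCm38.p6, written in the direction of the gene. All 4 genes were matched. They lie at chr11:87793534-87793783 on the plus strand for Mpo, chr10:79886062-79886311 on the plus strand for Elane, chr10:79879417-79879666 on the plus strand for Prtn3 and chr14:56102575-56102824 on the minus strand for Ctsg. Capitals mark matches on either strand to GAGGAA, a core bound by PU.1, and to CAACNG, a core bound by MYB; no match to the first overlapped a match to the second.
Mpo: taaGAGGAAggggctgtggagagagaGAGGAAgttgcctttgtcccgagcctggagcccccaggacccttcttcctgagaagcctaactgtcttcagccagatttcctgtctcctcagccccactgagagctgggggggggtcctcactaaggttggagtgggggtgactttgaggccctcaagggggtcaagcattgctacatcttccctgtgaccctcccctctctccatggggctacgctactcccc
Elane: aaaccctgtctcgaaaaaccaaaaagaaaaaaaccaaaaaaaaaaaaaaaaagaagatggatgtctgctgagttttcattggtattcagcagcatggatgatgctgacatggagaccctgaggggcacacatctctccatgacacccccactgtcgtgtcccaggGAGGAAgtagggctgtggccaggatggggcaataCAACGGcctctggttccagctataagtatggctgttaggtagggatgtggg
Prtn3: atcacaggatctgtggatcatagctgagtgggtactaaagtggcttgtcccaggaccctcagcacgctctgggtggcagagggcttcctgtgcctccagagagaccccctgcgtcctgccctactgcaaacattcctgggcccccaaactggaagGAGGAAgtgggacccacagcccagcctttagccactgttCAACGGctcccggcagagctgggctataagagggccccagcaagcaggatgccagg
Ctsg: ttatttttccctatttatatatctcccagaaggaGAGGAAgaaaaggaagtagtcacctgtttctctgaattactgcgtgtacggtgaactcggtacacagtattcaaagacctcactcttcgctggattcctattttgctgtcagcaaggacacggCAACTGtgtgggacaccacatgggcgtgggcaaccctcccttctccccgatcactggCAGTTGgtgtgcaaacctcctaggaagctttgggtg

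The letters GAGGAA were found in 4 of 4 of these windows, and in 23.3% of the 32841 windows of this length in the RefSeq table. With positions counted from the start and negative before it, Elane had the match at -85 and Prtn3 at -95, whereas Mpo had matches at -247 and -224 and Ctsg 1 match at -216. The letters CAACNG were found in 3 of 4 windows, those of the proteases, and in 29.3% of all windows. In the neighbouring genes Elane and Prtn3 that match began at -51 and -56 and read CAACGG in both. The RUNX core TGTGGT was found only in the Ctsg window, at -79 on the minus strand, against 14.0% of all windows. The TATA box letters TATAAA were also found only there, against 12.4%, but at -237 on the minus strand, far from where a TATA box acts. The variant TATAAG, searched after the sequences were seen, lay at -31 in Elane and -32 in Prtn3 on the plus strand, and 6.65% of all windows hold it. The C/EBP core TTGCNNAA (9.57% of all windows), the LEF/TCF core CTTTGAT (3.21%) and the GC box GGGCGG (32.7%) were in 0 of 4 windows. A match describes letters in this window and not binding, and further control regions were not searched.

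Mpo, with probe set 10380174, measured 9.17, 9.04 and 9.38 in KO replicates 1, 2 and 3 and 7.44, 7.58 and 7.76 in the WT replicates, as RMA values on the log2 scale. Every KO array was above every WT array, and the lowest KO value exceeded the highest WT value by 1.28. The group means were 9.19 ± 0.17 for KO and 7.59 ± 0.16 for WT (SD, n = 3 each). This made a log2 difference of 1.60 (SE 0.12), or 3.04-fold, and 5 of the 21789 probe sets had a larger one. In cells sorted in bulk, a higher share of cells that contain a transcript and more of it per cell cannot be told apart.

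Elane, with probe set 10364535, measured 9.01, 8.95 and 9.26 in KO and 7.52, 7.92 and 8.06 in WT. The groups did not overlap, with a gap of 0.90 between the lowest KO and the highest WT array. The means were 9.07 ± 0.17 in KO and 7.83 ± 0.28 in WT (SD, n = 3 each), a log2 difference of 1.24 (SE 0.15), or 2.37-fold.

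Ctsg, with probe set 10420261, measured 8.00, 7.63 and 7.90 in KO and 6.76, 6.68 and 6.68 in WT. Its WT arrays lay closer together than those of the other 3 genes, with an SD of 0.048, and the groups were separated by 0.87. Their means were 7.84 ± 0.19 for KO and 6.71 ± 0.048 for WT (SD, n = 3 each), a log2 difference of 1.14 (SE 0.10), or 2.20-fold.

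Prtn3, with probe set 10364529, measured 7.64, 7.73 and 8.05 in KO and 6.70, 7.17 and 7.08 in WT. The groups did not overlap here either, but the gap was the smallest of the 4 genes, 0.48. With means of 7.81 ± 0.22 for KO and 6.98 ± 0.25 for WT (SD, n = 3 each), the log2 difference was 0.83 (SE 0.15), or 1.78-fold, and 91 probe sets had a larger one.

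**Figure D1:**
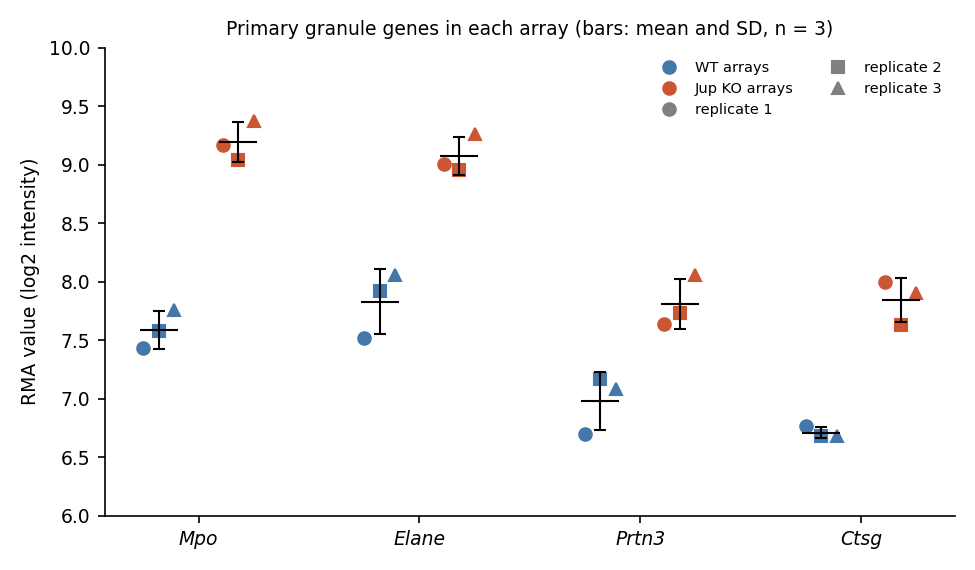
RMA values (log2 intensity, vertical axis) of the 4 primary granule genes in each of the 3 WT and 3 Jup KO arrays, with marker shapes for the replicate numbers and bars for the group mean and SD. The KO arrays lie above the WT arrays for every gene, with the widest gap for Mpo (1.28) and the narrowest for Prtn3 (0.48).

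All 4 members thus had every KO array above every WT array, a pattern seen in 5.94% of all probe sets, while 8.08% had every KO array below every WT array. Since the members were chosen from this contrast, that count carries no weight. Over all probe sets 44.2% had a higher mean in KO. The median of their log2 differences was -0.02, with 5th and 95th percentiles of -0.23 and 0.24. The mean of the 4 genes per array was 8.45, 8.34 and 8.65 in KO and 7.10, 7.33 and 7.39 in WT, a log2 difference of 1.20 (SE 0.13, from the spread between arrays). It was 1.23 without WT replicate 2, the array that stood apart in sex-linked transcripts: Xist was 6.20 there and 13.03 to 13.38 in the other 5 arrays, and the Y-linked Uty was 10.09 there against 4.96 to 5.54. No KO array was of that kind.

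From largest to smallest the differences ran Mpo, Elane, Ctsg and Prtn3, an order given as a description, since the genes were chosen on these values and each has its own probes. On the log2 scale the difference of Mpo exceeded that of Elane by 0.36 (SE 0.08), that of Ctsg by 0.47 (SE 0.15) and that of Prtn3 by 0.78 (SE 0.12). The difference of Elane exceeded that of Ctsg by 0.11 (SE 0.22) and that of its neighbour Prtn3 by 0.42 (SE 0.08), and Prtn3 minus Ctsg was -0.31 (SE 0.23). RMA compresses the changes of dim transcripts, and in WT the brightness of Mpo and Elane lay at the 50.1 and 53.2 percentile of all probe sets, against 39.8 for Prtn3 and 34.4 for Ctsg. Brightness also depends on the probes, so these ranks do not order the genes by abundance, and its part in the sizes was not tested.

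Within the groups the genes did not share 1 order of arrays. In KO, replicate 3 was highest for Mpo, Elane and Prtn3, but replicate 1 for Ctsg. In WT, replicate 1 was lowest for Mpo, Elane and Prtn3, by 0.31 below the WT mean for Elane, and it was the highest WT array for Ctsg. Over the 6 arrays each gene's values correlated with the mean of the other 3 at Pearson's r of 0.948 to 0.995, which mostly reflects the step between the groups that the choice of genes fixed.

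Jup itself came out lower in the KO arrays, at 7.04, 7.06 and 7.27 against 8.04, 7.62 and 8.51 in WT, without overlap. Its log2 difference of -0.93 (SE 0.20) missed the threshold of 0.05 over all probe sets (limma adjusted p = 0.171). Over the 21789 probe sets 0.0505% rose and 0.0688% fell at a limma adjusted p under 0.05, while 4.48% were higher and 4.73% lower in KO by an unadjusted p under 0.05. Array medians lay between 7.53 and 7.61 and any pair of arrays correlated at 0.991 to 0.996 across probe sets. Markers of the sorted cells were bright in both groups. In WT Cd79a, Cd79b, Igll1, Ebf1 and Vpreb3, genes of early B cells, lay at or above the 99.4 percentile of probe sets. Enpep, which encodes BP-1, measured 12.36 in KO and 12.59 in WT, and Ptprc, which encodes B220 and CD45, 11.37 and 11.18. The 17 measured genes of this B cell list had a median log2 difference of 0.06, and in limma 0 passed over all probe sets, with 3 higher and 1 lower at an unadjusted p under 0.05. The higher ones were Rag2 and Rag1, the recombinase that joins immunoglobulin gene segments, and Blk, a kinase of B cell receptor signalling. Rag2 measured 9.96, 10.13 and 10.23 in KO and 9.65, 9.85 and 9.57 in WT, without overlap (0.42, SE 0.10, limma adjusted p = 0.260). Blk did not overlap either (0.89, SE 0.27, limma adjusted p = 0.360), and Rag1 did (0.50, SE 0.16, limma adjusted p = 0.379). The lower one was Enpep (-0.23, SE 0.09).

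Other contents of the primary granule had a median difference below those of the 4 enzymes, which the choice of these enzymes for high KO values favours. Of 14 listed genes 13 were measured, 8 with a higher KO mean, and their median log2 difference was 0.04. In limma 0 passed over all probe sets and 3 were higher at an unadjusted p under 0.05. Among all probe sets 44.2% had a higher KO mean and 4.48% were higher by that p. Lyz2, the lysozyme of myeloid cells, measured 9.91, 9.89 and 9.70 in KO and 8.99, 9.66 and 8.93 in WT, with WT replicate 2 close to the KO arrays (0.64, SE 0.18, limma adjusted p = 0.318). Also higher were its near copy Lyz1 (0.32, SE 0.14), whose probes may share transcripts with it, and Ms4a3, a membrane protein of granulocyte progenitors (0.37, SE 0.13). Ms4a3 measured 6.36, 6.61 and 6.92 in KO and 6.22, 6.33 and 6.23 in WT. Prss57, a serine protease of the same granules, measured 7.36, 7.19 and 7.14 in KO and 7.33, 7.25 and 7.25 in WT, a log2 difference of -0.05 (SE 0.08). Bpi, the bactericidal protein that binds endotoxin, gave -0.04 (SE 0.08) and was dim in both groups. The lysosomal hydrolases of the list, such as Gaa (0.19), Arsa (0.18), Ctsd (-0.08), Gusb (-0.02) and Man2b1 (-0.01), are also made by most other cells. They make up much of the list and so weigh on its median.

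Genes that activate, fold and pack the enzymes gave small differences. Ctsc, the cathepsin C that trims all 3 protease precursors, measured 11.27, 11.00 and 11.15 in KO and 11.34, 11.29 and 11.23 in WT. Srgn, which encodes the core protein of serglycin, measured 13.25 in KO and 13.20 in WT. Calr and Canx, chaperones that hold newly made myeloperoxidase, gave log2 differences of -0.06 and -0.13. Of 15 genes in this list all were measured, 4 with a higher KO mean, and the median was -0.06. Pdia3 was lowest by moderated t (-0.21, SE 0.10) and Ap3d1 highest (0.08, SE 0.07), and in limma 0 passed over all probe sets and 0 had an unadjusted p under 0.05. Most of these genes serve all secretory or lysosomal pathways.

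Among the inhibitors that hold these proteases in check, Serpina3n had the largest difference. It belongs to the family that inhibits cathepsin G and measured 7.27, 8.18 and 7.40 in KO and 6.48, 6.74 and 6.59 in WT, without overlap (1.01, SE 0.21, limma adjusted p = 0.171). Serpinb1a, the cytosolic inhibitor of elastase, proteinase 3 and cathepsin G, overlapped between the groups, with KO replicate 2 highest at 9.80 and WT replicate 2 at 8.38 and the other 4 arrays between 9.05 and 9.16 (0.47, SE 0.25). Slpi, a secreted inhibitor of elastase, gave 0.17 (SE 0.10), and Serpinb1b was lowest by moderated t (-0.34, SE 0.14). Of 20 listed genes 13 were measured, with a median of 0.01. In limma 0 passed over all probe sets, with 1 higher and 2 lower at an unadjusted p under 0.05. The shares over all probe sets were 4.48% higher and 4.73% lower by that p.

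The relatives of the 3 proteases in other blood cells had a small median difference. Of 23 listed granzymes, mast cell proteases and tryptases 20 were measured, 11 with a higher KO mean, and the median log2 difference was 0.03. In limma 0 passed over all probe sets and 2 were higher at an unadjusted p under 0.05, both genes of basophils: Mcpt8 (0.52, SE 0.22), at 7.77, 7.33 and 7.21 in KO and 7.42, 6.69 and 6.64 in WT, and Prss34 (0.27, SE 0.11). Tpsg1 was lowest by moderated t (-0.11, SE 0.09). Over all probe sets 4.48% were higher at an unadjusted p under 0.05 in limma, and 44.2% had a higher KO mean. Several granzymes are close copies of each other, and their probe sets may share signal. Many genes of this list were dim, with Mcpt1, Mcpt2, Gzmd and Gzmn at the 2.87 to 3.67 percentile of brightness in WT. RMA compresses changes there, so the median does not show that the relatives were unchanged. Peroxidases and haem synthesis genes had a median of -0.03 over 15 measured of 18, with Ppox highest (0.20, SE 0.11) and Alad lowest (-0.33, SE 0.19). In limma 0 of them passed over all probe sets and 0 had an unadjusted p under 0.05.

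**Figure D2:**
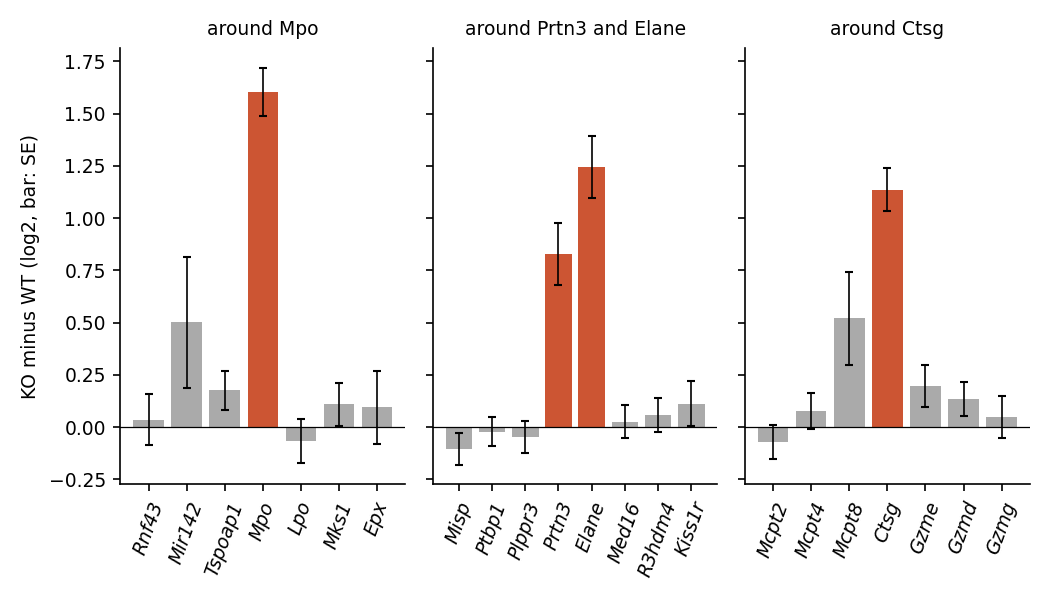
Log2 difference, KO minus WT (vertical axis, with the moderated SE as bars), of the 4 members in red and of the 3 nearest measured genes on each side in grey, in genome order. Lpo and Epx beside Mpo and the granzymes beside Ctsg stay between -0.07 and 0.20, and Mcpt8 is at 0.52.

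Genes next to the members were compared because all 4 lie in or near clusters of related genes. Prtn3 and Elane are next to each other on chromosome 10, Mpo lies beside the related peroxidase genes Lpo and Epx on chromosome 11, and Ctsg lies between the mast cell proteases and the granzymes on chromosome 14. The 18 nearest measured genes had log2 differences of -0.11 to 0.52 with a median of 0.07, and for 0 of them the KO and WT arrays were free of overlap. Among all probe sets 5.94% had every KO array above every WT array and 8.08% had every KO array below. In limma 0 passed over all probe sets, and Mcpt8 was the 1 with an unadjusted p under 0.05. Lpo, the lactoperoxidase gene, gave -0.07 (SE 0.11) and Epx, the eosinophil peroxidase gene, 0.09 (SE 0.18). Mir142, a microRNA gene of blood cells before Mpo, gave 0.50 (SE 0.31), with WT replicate 2 lowest at 8.09. On chromosome 10 Plppr3, just before Prtn3, gave -0.05 (SE 0.08) and Med16, a Mediator subunit after Elane, 0.03 (SE 0.08). Cfd, the serine protease gene of complement factor D next to Elane, had no probe set with 1 symbol and was not analysed here.

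The transcription factors that control these genes in myeloid cells showed differences below those of the members, which were chosen for high KO values. Of 14 listed factors 12 had a higher KO mean, with a median of 0.10. In limma 0 passed over all probe sets and 2 were higher at an unadjusted p under 0.05. Over all probe sets 44.2% had a higher KO mean and 4.48% were higher by that p. Every KO array was above every WT array in 5.94% of them. Spi1, which encodes PU.1, measured 10.80, 11.13 and 10.96 in KO and 10.98, 10.78 and 10.64 in WT, and the groups overlapped (0.17, SE 0.12, limma adjusted p = 0.745). Cebpa, needed for the first granulocyte progenitors, gave -0.02 (SE 0.10), and Cebpe, which acts in later granulocytes, 0.29 (SE 0.13). Gfi1 gave 0.04 (SE 0.08), Myb 0.20 (SE 0.10) and Runx1 0.08 (SE 0.09). The factors without overlap were Rara, the retinoic acid receptor of promyelocyte maturation, at 9.27, 9.25 and 9.27 in KO and 8.91, 8.65 and 8.73 in WT (0.50, SE 0.09, limma adjusted p = 0.106), and Klf4, a factor of monocytes (0.24, SE 0.08, limma adjusted p = 0.437). Cbfb was lowest (-0.03, SE 0.08). Spi1, Myb, Runx1 and Irf8 also act in B cells.

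Receptors and substrates of the proteases differed in both directions. Among 13 measured of 15, the median was 0.11. In limma 0 passed over all probe sets, with 3 higher and 2 lower at an unadjusted p under 0.05. By that p 4.48% of all probe sets were higher and 4.73% lower. Grn, whose product progranulin is cut by elastase and proteinase 3, was higher (0.52, SE 0.13, limma adjusted p = 0.257), and so were Cxcr4 (0.34, SE 0.13) and Csf3r (0.37, SE 0.16), receptors that elastase can cleave. Tnf, a cytokine whose precursor proteinase 3 can process, measured 9.11, 8.40 and 8.72 in KO and 10.23, 9.89 and 9.85 in WT (-1.24, SE 0.18, limma adjusted p = 0.0622). F2rl2, a thrombin receptor of the protease-activated family, measured 7.14 to 7.26 in KO and 7.65 to 7.74 in WT (-0.50, SE 0.07, limma adjusted p = 0.0646). Both missed the threshold over all probe sets. Both passed with each array centred on its median (limma adjusted p = 0.0374 and 0.0398) and with array weights (0.0260 and 0.0255). Neither passed with further quantile normalization. With the replicate block Tnf passed and F2rl2 did not. With 1 array left out F2rl2 never passed, and Tnf passed only without KO replicate 1.

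**Figure D3:**
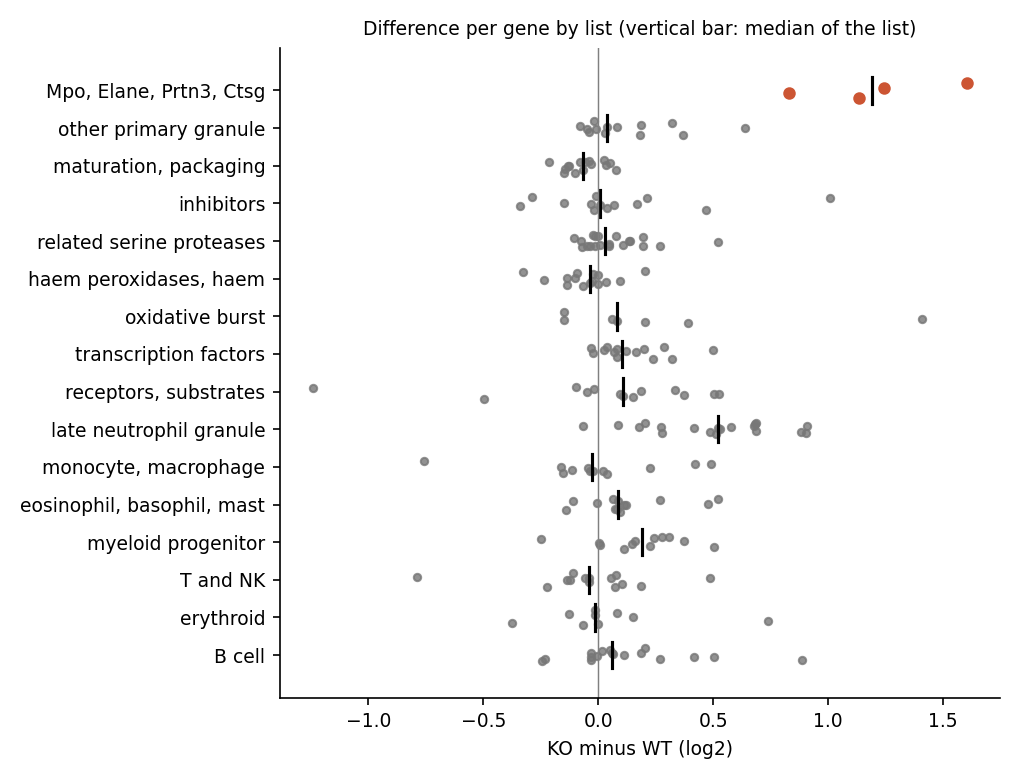
Log2 difference, KO minus WT (horizontal axis), of each measured gene in the 4 members and in 15 lists of related genes and cell type markers, with a vertical bar at each list's median. The members lie between 0.83 and 1.60, the late neutrophil granule genes have a median of 0.52, and the other lists have medians between -0.06 and 0.19.

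Genes of later neutrophil granules were the list with the highest median. The list includes the genes of lactoferrin (Ltf) and the gelatinase Mmp9, which are transcribed after the primary granule stage. It also holds neutrophil genes that encode no granule content, such as the receptor Ltb4r1. Of 20 listed 19 were measured, 18 with a higher KO mean, and the median log2 difference was 0.52. In limma 0 passed over all probe sets, 12 were higher and 0 lower at an unadjusted p under 0.05, and 10 had every KO array above every WT array. Of all probe sets 4.48% were higher and 4.73% lower by that p, and 5.94% had every KO array above every WT array. S100a9, a calcium-binding protein of neutrophils, measured 9.34, 9.12 and 9.16 in KO and 8.04, 8.75 and 8.10 in WT (0.91, SE 0.18, limma adjusted p = 0.139). Ngp, the neutrophilic granule protein, measured 12.23, 12.27 and 12.38 in KO and 11.29, 12.07 and 11.46 in WT (0.68, SE 0.18, limma adjusted p = 0.285). Ltf, which encodes lactoferrin, overlapped because WT replicate 2 was at 9.13, within the KO arrays at 9.09, 9.06 and 9.34. Ltb4r1, a leukotriene receptor, was lowest by moderated t (-0.07, SE 0.10).

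WT replicate 2 lay near the KO arrays for the late genes and near the other WT arrays for the 4 enzymes. The mean of the 19 late genes was 7.74, 8.30 and 7.85 in WT replicates 1, 2 and 3 and 8.45 to 8.48 in KO, so WT replicate 2 lay 75.7% of the way from the mean of the other WT arrays to the KO mean. For the mean of the 4 members that figure was 6.98%, and by gene it was -1.21% for Mpo, 10.1% for Elane, 30.0% for Prtn3 and -3.86% for Ctsg. The member mean exceeded the late mean by 0.0053, -0.15 and 0.20 on the log2 scale in the KO arrays and by -0.64, -0.96 and -0.46 in the WT arrays, where only the change between arrays can be read and not the level. This array was singled out after its values were seen, and the difference between the gene groups was not tested. The members were chosen for high KO values in these same arrays, which favours WT arrays that lie far from the KO arrays. The contrast with the late genes therefore carries no weight. Without it, S100a9, Ly6g, Ngp and Lyz2 passed over all probe sets, with log2 differences of 1.14, 0.86, 0.92 and 0.87 (limma adjusted p = 0.0201, 0.0294, 0.0296 and 0.0352). With all arrays none of them passed (limma adjusted p = 0.139, 0.166, 0.285 and 0.318). WT replicate 2 was the WT array nearest the KO arrays for these genes. Leaving it out therefore favours such calls, and they carry no weight.

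**Figure D4:**
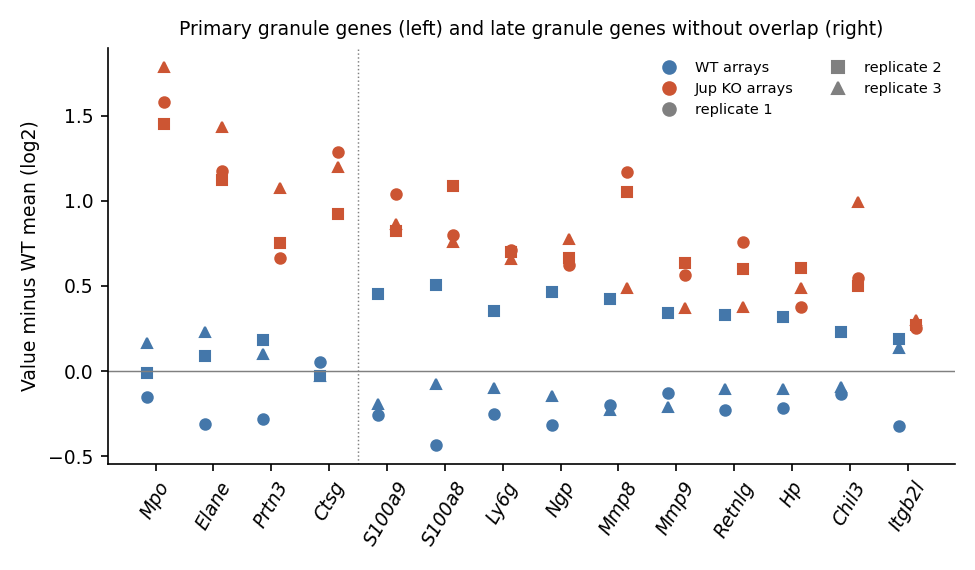
RMA value minus the WT mean of the gene (log2, vertical axis) in each array. The 4 primary granule genes are on the left of the dotted line. On the right are the 10 genes without overlap from the list of late neutrophil granule genes, which also holds other neutrophil genes. WT replicate 2 (blue squares) lies at most 0.18 above the WT mean for the primary genes and above both other WT arrays for all 10 late genes. The choice of the primary genes for high KO values favours this contrast.

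Since sorted cells can hold a few cells of other types, the marker lists of myeloid cells are given beside the members, and their part in the result was not tested. The linear intensities of the 19 late neutrophil genes summed to 13442 to 14515 in the KO arrays and 8433 to 12325 in the WT arrays, without overlap. This sum was led by Ngp, the brightest of them, with means of 12.29 in KO and 11.61 in WT. The next brightest, Lcn2 and Cybb, overlapped between the groups. For 12 measured monocyte and macrophage markers of 15 the sums were 1514 to 1599 in KO and 1460 to 1623 in WT, which overlapped. Of these 12 genes 5 had a higher KO mean, with a median of -0.03, and in limma 0 passed over all probe sets, with 3 higher and 1 lower at an unadjusted p under 0.05. Csf1r and Cd14, common markers of these cells, gave -0.11 and -0.15 and lay at the 33.2 and 22.0 percentile of brightness in WT. The 3 higher genes were F13a1, Ms4a6c (0.42, SE 0.13) and Ccr2 (0.22, SE 0.07), each without overlap. Across all probe sets 4.48% were higher and 4.73% lower by that p. Every KO array was above every WT array in 5.94% of them, and 44.2% had a higher KO mean. Ccr2 was dim, at the 11.3 percentile in WT. F13a1, factor XIII of monocytes and their precursors, measured 7.90, 7.89 and 8.06 in KO and 7.50, 7.44 and 7.44 in WT (0.49, SE 0.08, limma adjusted p = 0.0869), and Clec4a3 was lowest (-0.76, SE 0.22). An array gives no true 0, so absence of a marker cannot be read from it.

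Markers of eosinophils, basophils and mast cells summed to 1324 to 1497 in KO and 1206 to 1325 in WT over 13 measured of 16, with a median log2 difference of 0.09. In limma 0 passed over all probe sets and 3 were higher at an unadjusted p under 0.05, namely Cpa3, a mast cell carboxypeptidase (0.48, SE 0.15), and the basophil proteases Mcpt8 and Prss34; Prg3 was lowest (-0.14, SE 0.09). All 12 listed markers of myeloid progenitors were measured, 11 with a higher KO mean (9 with each array centred on its median) and a median of 0.19. They summed to 14040 to 14715 in KO and 11810 to 13484 in WT, without overlap, a sum led by Cd93, which early B cells also express. In limma 0 passed over all probe sets, with 5 higher and 1 lower at an unadjusted p under 0.05. They ran from Fcgr3, an Fc receptor (0.31, SE 0.07), to Flt3, a cytokine receptor of progenitors (-0.25, SE 0.08). Beside both lists, 4.48% of all probe sets were higher and 4.73% lower by that p, and 44.2% had a higher KO mean. Kit, the receptor of stem and progenitor cells, gave 0.51 (SE 0.24) and Cd34 0.01.

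The genes with the profile most like the mean of the 4 members over the 6 arrays were Zbtb20 (Pearson's r of 0.97), Slc14a1 (0.96), Esco1 (0.96), Pde9a (0.95), Car1 (0.95), Zc3h12b (0.95), H2-Q5 (0.95) and Eml5 (0.94). They were taken from 984 named probe sets with an SD of at least 0.3 over the arrays, the members left out. Zbtb20, a zinc finger transcription factor, measured 9.36, 9.54 and 9.60 in KO and 8.75, 8.74 and 8.73 in WT. The lowest correlations were those of Eng (-0.99), Hmgcll1 (-0.98), Bnip3 (-0.98) and Sparc (-0.98). Eng, which encodes endoglin, had means of 10.20 ± 0.17 in KO and 11.02 ± 0.040 in WT (SD, n = 3 each). All 12 genes had no overlap between the groups, which the measure of likeness favours, and with 6 arrays in 2 groups the order among them says little.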

How the data were processed

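RNA from 3 Jup KO and 3 WT samples, 100 ng each, was labelled and hybridised, per the labels' protocols, to Affymetrix arrays that read 1 sample each. Per the submitters' processing notes, the authors computed the deposited log2 values by RMA, in version 1.1 of Expression Console. The options, genome build and annotation are not given in the sources used here. RMA usually equalises the intensity distributions of the arrays, which removes any shift common to all genes. Depth does not apply to arrays, and their number limits the precision.

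Of 35556 rows, 23410 are listed in the platform annotation and 21789 have exactly 1 gene symbol. These were fitted with limma 3.58.1 in R 4.3.3 (lmFit, eBayes, no covariate, no filter), with Benjamini-Hochberg adjustment over all of them and a threshold of 0.05. Differences are KO minus WT with moderated standard errors. Where a gene had several probe sets, the one with the highest mean stood for it. The fit was tested on simulated data.

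The members, gene lists and motifs were chosen with earlier results of these data known. Of 231 listed genes outside the members 198 were measured. Named are the members, Jup, genes past the threshold, each list's highest and lowest member by moderated t, set regulators and processing genes, the 3 nearest measured genes on each side, and the genes with the most and least similar profiles; others, including those at an unadjusted p under 0.05, were named after their values were seen. Promoters came from RefSeq of GRCm38.p6. The array annotation names no build, so this assembly served otherwise only for gene names and neighbours.

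Alternatives were other scalings, array weights, a replicate block, each array left out, a filter on dim probe sets, another prior, all rows, averaging a gene's probe sets and a threshold of 0.1.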

Additional observations from a re-analysis of the deposited data

How the results depend on the processing

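The differences of the 4 members and of their mean kept their direction and moved by less than the spread between replicates under all 11 alternatives tried for each. The ranges were 1.51 to 1.69 for Mpo, 1.09 to 1.36 for Elane, 0.69 to 0.92 for Prtn3, 1.06 to 1.24 for Ctsg and 1.12 to 1.27 for the mean. Averaging a gene's probe sets and the replicate block are among these alternatives but could not move the differences. Each member has 1 probe set, and both groups hold the same replicate numbers. With 3 arrays per group, leaving out 1 always moves a difference by less than that spread, so there only the direction could have changed. Jup missed the threshold under all 14 of its alternatives (limma adjusted p = 0.0551 to 0.531). The counts of probe sets, 11 higher and 15 lower, were less stable. They were 26 and 29 with arrays centred on the median, 93 and 57 with array weights, 17 and 23 with a trended and robust prior, and 25 and 33 at an adjusted p under 0.1. Fitted on every row, including those without 1 symbol, 59 were lower. With 1 array left out they ranged from 1 to 41 higher and from 3 to 41 lower: 41 and 41 when KO replicate 1 was left out, 2 and 3 for KO replicate 2, 1 and 4 for KO replicate 3, 3 and 5 for WT replicate 1, 8 and 13 for WT replicate 2, and 1 and 7 for WT replicate 3. The replicate block gave 8 and 11. Deviations from the group means correlated at 0.10, -0.0043 and 0.27 between same-numbered KO and WT arrays. Pairs with unlike numbers lay between -0.25 and 0.13, so the numbers were not taken as pairing. Of the genes in the lists, Car1 rose and 0 fell. Higher and lower counts were 0 and 1 (Tnf) with the replicate block and 3 and 2 with array weights (Rara, F13a1 and Car1, and Tnf and F2rl2), and 2 were lower with arrays centred on the median. At an adjusted p under 0.1 they were 2 and 2, and with 1 array left out 0 to 4 and 0 to 1. Car1 passed with none of the 6 arrays left out (limma adjusted p = 0.0529 to 0.132) and not with the replicate block (0.0749). Under the other scalings the median of the inhibitor list turned from 0.01 to -0.002 and -0.01, and every other list kept its sign. The causes of these changes were not tested. Leaving out an array also leaves fewer samples.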

Other observations

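Genes of the oxidative burst, which supplies myeloperoxidase with hydrogen peroxide, gave mixed values. Among 7 measured of 8, the median log2 difference was 0.08. In limma 0 passed over all probe sets and 2 were higher at an unadjusted p under 0.05, as were 4.48% of all probe sets. Hvcn1, a proton channel of phagocytes and B cells, measured 8.51, 9.74 and 8.85 in KO and 8.13, 7.51 and 7.23 in WT (1.41, SE 0.32, limma adjusted p = 0.204). Ncf1, a cytosolic subunit of the phagocyte oxidase, gave 0.39 (SE 0.10), and Ncf4, another, was lowest (-0.15, SE 0.08).

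T and NK cell markers had a median of -0.04 over 14 measured of 15. In limma 0 passed over all probe sets, with 1 higher and 2 lower at an unadjusted p under 0.05. By that p 4.48% of all probe sets were higher and 4.73% lower. Nkg7, a granule membrane protein of cytotoxic cells that some myeloid cells also express, measured 7.34, 7.42 and 7.64 in KO and 6.99, 7.21 and 6.74 in WT (0.49, SE 0.13). Klrb1c was lowest (-0.79, SE 0.20), and Cd3e, a subunit of the T cell receptor complex, gave -0.04. Erythroid markers had a median of -0.01 over 9 measured of 16. Car1, a carbonic anhydrase of red cell precursors, rose (0.74, SE 0.09, limma adjusted p = 0.0307). That call was lost with each of the 6 arrays left out (limma adjusted p = 0.0529 to 0.132) and with the replicate block (0.0749). No other erythroid marker passed over all probe sets, and Car2 was lowest (-0.38, SE 0.16).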
